A study of Bos taurus with 28 samples.

Results

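The 43 genes described here encode immune surface molecules, cytokines, chemokines, innate sensors and interferon-related factors in bovine subcutaneous adipose tissue (AT). They were picked by the start of their symbol (CD or IL with a number, CCL, CXCL, CCR, CXCR, TLR, TNF, LTA, IFN, IRF, ISG, FCRL, LY, NLR, BOLA and similar). The rule used no fold change, but it was set with earlier results of these data known. Symbols were known for 1995 of the 24616 Ensembl gene IDs counted, and 50 symbols matched. *CD68* and *CD300A* were left out by name, and *IL20*, *IL3*, *IL36B*, *IL36G* and *NLRP14* were left out because no library held 3 reads of them. A symbol prefix does not make a gene an immune gene, so *CD2AP*, *IRF2BP1*, *ISG20L2*, *LYVE1* and *LYZL6* are given apart.

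RNA-seq of AT biopsies from the right flank was available for 28 libraries from 11 healthy multiparous Holstein cows. There were 9 libraries from late pregnancy (PreP, day -11 relative to expected calving), 10 from early lactation (PP1, day 6) and 9 from a week later (PP2, day 13). The study gives each of these days with a spread between cows, so they are not exact for a library. Samples of 8 cows were available at all 3 time points. The cows received no experimental treatment, their diet changed from a close-up to a fresh ration at calving, and each biopsy was taken a few centimetres from the previous one, so time, lactation, diet and repeated surgery cannot be told apart.

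In AT, resident and recruited leukocytes lie between adipocytes and blood vessels. Macrophages, lymphocytes and mast cells sense danger signals through Toll-like receptors and NOD-like receptors, release interleukins and chemokines, and present antigen on molecules of the major histocompatibility complex (MHC). After calving, dairy cows mobilize fatty acids from AT, and leukocytes of the tissue are known to respond to lipolysis. RNA from whole tissue pools all cell types, so more cells of a type and more RNA per cell cannot be told apart in any result below.

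Total counts per library ran from 15293154 to 22284884. The genes described here held between 0.0562% and 0.142% of all counts in a library (median 0.0853% at PreP, 0.111% at PP1, 0.103% at PP2). Reads of 24 of the 43 genes were found in every library, whereas 9 genes (among them *BOLA-DYA*, *CCL17*, *CCL28*, *CD177*, *IL17A*, *IL22RA1*, *IL36A* and *LYZL6*) had a median under 3 reads at every time point. Levels are given as CPM, reads of a gene relative to the TMM-scaled library size, which makes a gene comparable between libraries but not with other genes, since gene length is not corrected. The PP1 library of cow B5169 stood apart, with the lowest level of its time point for 11 of the 24 genes found in every library. The PP1 library of cow B5102 was lowest for 7 of them. At PP2 the libraries of cows B5064 and B5090 were lowest for 7 genes each, and at PreP those of cows B5102 and B5176 were lowest for 8 and 7. The PP1 library of cow B4886 was highest of its time point for 9 genes. *CD68*, a macrophage marker, held 101 CPM in the PreP library of cow B5169, the highest of its time point, and 30.6 CPM in the PP1 library of this cow, the lowest of its time point. The same PreP library held 21.6 CPM of the macrophage marker *MSR1*, 5.48 of *LY9* and 3.01 of *CD200R1L*, all inside the range of the other PreP libraries, whereas the lowest PP1 libraries other than that of cow B5169 held 46.2, 14.1 and 6.24. The labels were kept as given, and whether these libraries were exchanged was not tested. PP1 values without the PP1 library of cow B5169 are also given for *CD200R1L*, *LY9*, *TNFSF13*, *IRF4*, *NLRP3*, *IL18*, *CXCR4*, *ISG20L2* and *IRF2BP1*. For the other genes and the cell type markers they are not given.

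To determine which of these genes differed after calving, each postpartum time point was compared with PreP. A gene was called a DEG if its FDR (p adjusted by Benjamini-Hochberg) was under 0.05 in edgeR's quasi-likelihood test, adjusted over all genes tested, and its absolute log2 fold change was over 1. At PP1, 2 of 41 genes tested were DEG, the cell surface receptors *CD200R1L* and *LY9*, both upregulated. That is 4.88% of the genes described, against 4.03% of all 18467 genes tested (3.34% upregulated). An unadjusted p under 0.05 was found for 14 of the 41 (34.1%), compared with 24.6% of all genes. Of these 14, 13 were higher at PP1 (14.2% of all genes were higher with such a p). With cow B5169 left out, 5 of the genes described were DEG at PP1 (*CD200R1L*, *LY9*, *IRF4*, *IL18* and *NLRP3*), as were 9.5% of all genes. At PP2, 2 of 43 genes were DEG, *LY9* and the transcription factor *IRF4*, both upregulated. This share of 4.65% stands beside 5.47% of all 18558 genes (3.52% upregulated), and the 9 genes with an unadjusted p under 0.05 (20.9%) stand beside 21.4%. The share of DEG among the genes described was thus near that of all genes at both time points. The median log2 fold change over the genes tested was 0.40 at PP1 (0.04 over all genes) and 0.36 at PP2 (0.10 over all genes).

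**Figure D1:**
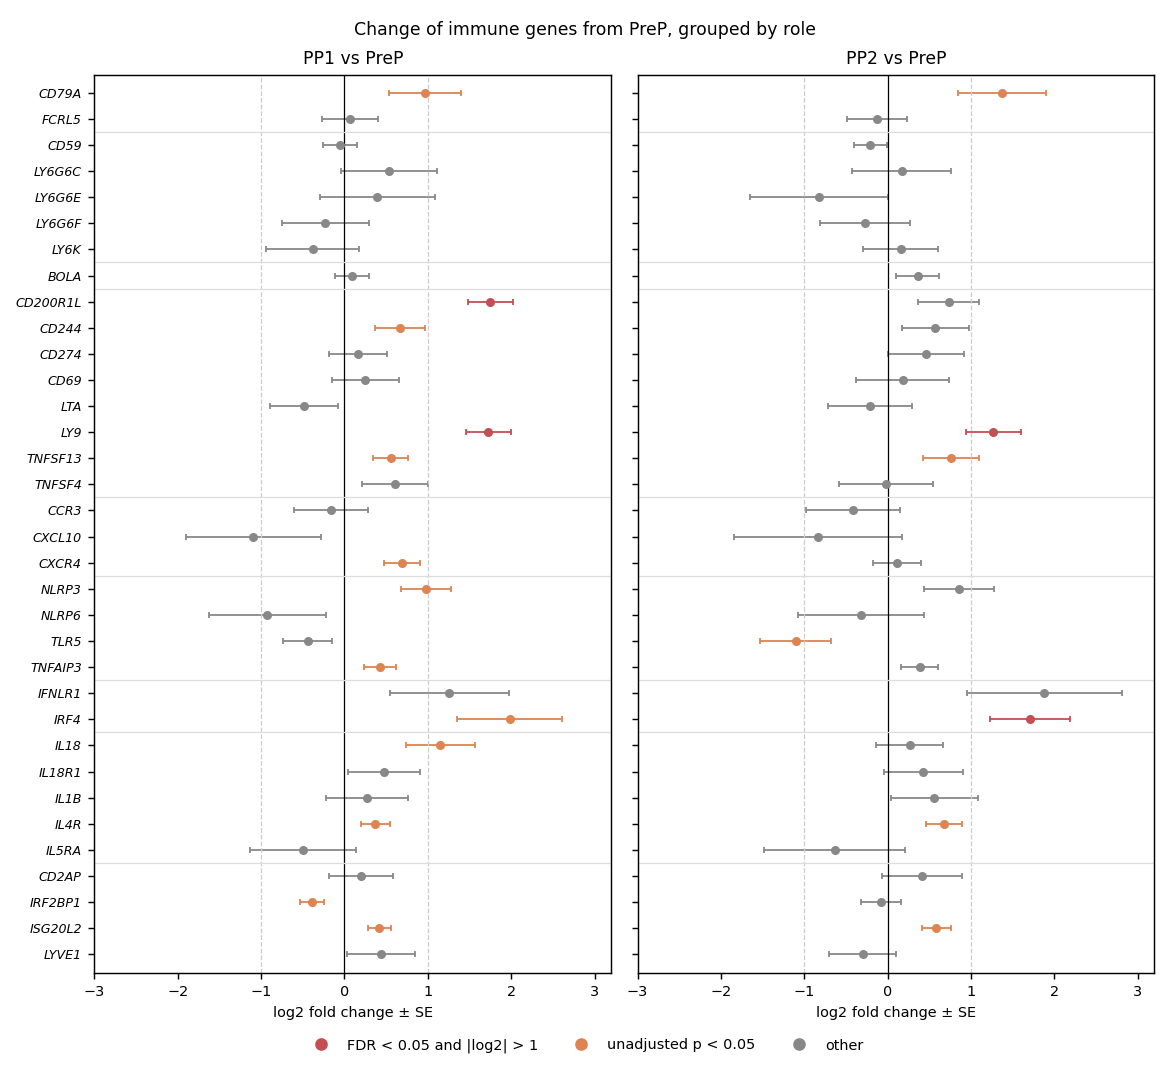
Log2 fold change at PP1 (left) and PP2 (right) relative to PreP for the 34 genes left after the 9 with a median under 3 reads at every time point are set aside. Points are edgeR estimates, bars are standard errors, grey horizontal lines separate roles and dashed lines mark a log2 fold change of 1 in either direction. *CD200R1L* (1.75) and *LY9* (1.72) were DEG at PP1, and *LY9* (1.27) and *IRF4* (1.71) at PP2.

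Among surface receptors, *CD200R1L* encodes a member of the CD200 receptor family, whose receptors bind CD200 or related ligands and tune the activity of myeloid cells. It held 2.43 to 5.89 CPM in the PreP libraries (median 3.33), 3.03 to 18.9 in those of PP1 (median 14.2) and 1.93 to 12.4 in those of PP2 (median 6.49). Every PP1 library other than that of cow B5169 lay above the highest PreP library, and the PP2 libraries lay on both sides of it. At PP1 its log2 fold change was 1.75 ± 0.274 (SE; FDR 0.00249). It was higher at PP1 in 8 of 8 cows with both samples, and an exact permutation test on log2 CPM, two-sided and comparing the libraries of both time points, gave p = 0.000336. Among all genes, 2.53% were higher in every paired cow. In cow B5169 the levels were nearly equal, at 3.01 CPM (61 reads) at PreP and 3.03 CPM (52 reads) at PP1. With cow as a block the log2 fold change was 1.56 (FDR 0.0478). Without the PP1 library of cow B5169 it was 1.87 (FDR 2.83e-05).

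At PP2 the log2 fold change of *CD200R1L* relative to PreP was 0.73 ± 0.369 (FDR 0.257), with 5 of 8 cows higher, and 0.29 with cow as a block (FDR 0.847). Relative to PP1 it was -1.03 ± 0.383 (unadjusted p = 0.0134, FDR 0.609, edgeR), and 8 of 9 cows were lower at PP2. *CD200R1L* was thus a DEG in the comparison of PP1 with PreP alone, and the difference between PP1 and PP2 did not pass the adjustment over all genes.

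*LY9* encodes a receptor of the SLAM family, which mediates contacts between leukocytes and is found on T and B lymphocytes. It held 3.98 to 7.59 CPM in the PreP libraries (median 5.48), 3.09 to 28.2 in those of PP1 (median 19.7) and 4.46 to 32.0 in those of PP2 (median 9.99). At PP1, 9 of the 10 libraries held 14.1 CPM or more, above every PreP library, and the library of cow B5169 held less than any PreP library. At PP2 the libraries spread from inside the PreP range to above the PP1 range. The log2 fold change was 1.72 ± 0.271 at PP1 (FDR 0.00249, higher in 7 of 8 cows, exact permutation p = 0.000563). Without the PP1 library of cow B5169 it was 1.85 (FDR 5.09e-06). With cow as a block it was 1.51 and no longer a DEG (FDR 0.0596, where 0.314% of all genes were DEG).

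At PP2 the log2 fold change of *LY9* was 1.27 ± 0.331 (FDR 0.0265, higher in 6 of 8 cows, exact permutation p = 0.00642). With cow as a block it was 1.02 and not a DEG (FDR 0.172). Leaving out any of the cows B4886, B4987, B5102, B5129, B5165 or B5176 also ended the call, with an FDR up to 0.0788. *CD244*, another SLAM family receptor on natural killer cells and T lymphocytes, is a neighbour of *LY9* and overlaps it in the RefSeq annotation. Since the strandedness of the counting is not given in the sources used here, reads in a shared stretch cannot be told apart. *CD244* had a log2 fold change of 0.67 ± 0.302 at PP1 (unadjusted p = 0.038, FDR 0.175, edgeR), with 4 of 8 cows higher, and of 0.57 ± 0.399 at PP2 (FDR 0.445). Cow B5129 held 8.53 CPM of *CD244* at PP2, where the next highest library held 4.44, and without this cow the value was 0.16 (FDR 0.895). The block gave 0.44 at PP1 (FDR 0.471) and 0.22 at PP2 (FDR 0.906).

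**Figure D2:**
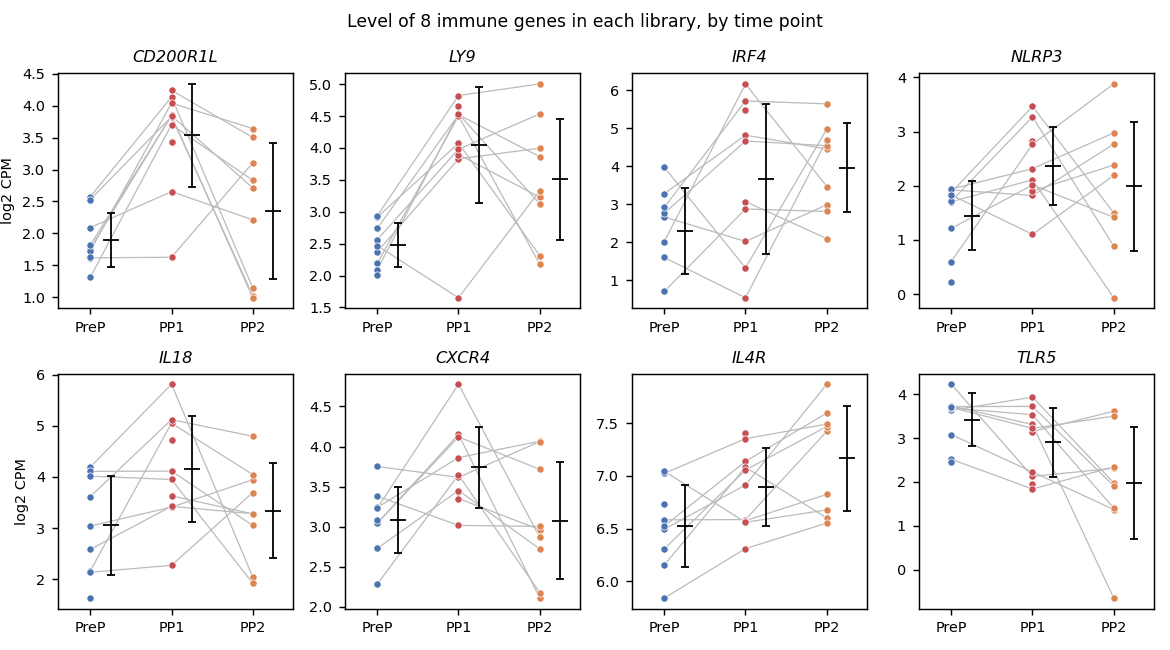
Level of 8 of the genes in each library (log2 CPM) at PreP, PP1 and PP2, where grey lines join samples of the same cow and the bars beside the points give the mean ± SD of the libraries. For *CD200R1L* and *LY9* all PP1 libraries but that of cow B5169 lay above the PreP libraries, *IRF4* spread widely at PP1, and *TLR5* was lower at PP2 than at PreP in 8 of 8 cows.

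The other ligands and receptors of this role did not pass the threshold. *TNFSF13*, which encodes the B cell and plasma cell survival factor APRIL, had medians of 14.7 CPM (PreP), 18.7 (PP1) and 18.2 (PP2). The change at PP1 was 0.55 ± 0.205 on the log2 scale (unadjusted p = 0.0135, FDR 0.104, edgeR; 6 of 8 cows higher), and that at PP2 was 0.76 ± 0.332 (unadjusted p = 0.0325, FDR 0.185; 5 of 8 cows higher). Cow B4886 held 59.9 CPM at PP2, where the next highest library held 34.8, and without this cow the log2 fold change at PP2 was 0.48 (FDR 0.413), while with cow as a block it was 0.45 (FDR 0.617). Without the PP1 library of cow B5169 the change at PP1 was 0.62 (FDR 0.0313), under the threshold on the fold change. *CD274* (the ligand PD-L1, which restrains T cells), *CD69* (an early activation marker of lymphocytes), *LTA* (lymphotoxin alpha) and *TNFSF4* (OX40 ligand) had an unadjusted p above 0.05 in all 3 comparisons without the cow term. *TNFSF4* had a log2 fold change of 1.13 at PP1 with cow as a block (unadjusted p = 0.0146, FDR 0.143, edgeR), against 0.60 without it, and 7 of 8 cows were higher.

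Within the interferon and IRF genes, *IRF4* encodes a transcription factor of lymphocytes and alternatively activated macrophages that is also expressed in adipocytes, where it is known to act on lipid handling. It held 1.57 to 15.6 CPM in the PreP libraries (median 6.27), 1.40 to 71.5 in those of PP1 (median 16.8) and 4.21 to 49.7 in those of PP2 (median 21.8). The PP1 libraries spread more widely on the log2 scale than those of either other time point, and 3 of 8 cows were lower at PP1 than at PreP. At PP2 all 8 paired cows were higher than at PreP. Among all genes 0.997% were higher in every paired cow at PP2.

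The log2 fold change of *IRF4* was 1.71 ± 0.483 at PP2 (FDR 0.0385, exact permutation p = 0.00806), and 1.69 with cow as a block (FDR 0.0244, where 2.2% of all genes were DEG). It remained a DEG without cow B5064, B5079 or B5169, and not without any 1 of the other 7 cows, with an FDR up to 0.109. It was not a DEG at PP2 with total counts in place of TMM scaling (1.65, FDR 0.0514) or with all 3 time points in 1 fit (1.70, FDR 0.0815). At PP1 the estimate was 1.98 ± 0.63 and missed the threshold (FDR 0.0623, exact permutation p = 0.0844). It was a DEG at PP1 without the PP1 library of cow B5169 (2.12, FDR 0.0172) or without that of cow B5102 (2.12, FDR 0.0395), but with cow as a block it was 1.16 (FDR 0.388). Between PP2 and PP1 the log2 fold change was -0.29 ± 0.616 (FDR 0.973).

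*IFNLR1*, which encodes a subunit of the receptor for type III interferons, had 12 reads over the 9 PreP libraries, 34 over the 10 PP1 libraries and 43 over the 9 PP2 libraries. At PP2, 25 of the 43 reads came from the library of cow B5090. It had an unadjusted p above 0.05 in all comparisons. No gene of the list of interferon-stimulated genes (such as *ISG15* and *MX1*) had an ID in the table of symbols, so interferon responses were not analysed here.

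None of the innate sensor genes was a DEG. *NLRP3*, the sensor of the inflammasome that activates caspase-1, held 1.11 to 3.78 CPM in the PreP libraries (median 3.23), 2.098 to 11.0 in those of PP1 (median 4.59) and 0.904 to 14.6 in those of PP2 (median 4.51). Its log2 fold change at PP1 was 0.98 ± 0.301 (unadjusted p = 0.00376, FDR 0.0549, edgeR), with 6 of 8 cows higher. Without the PP1 library of cow B5169 *NLRP3* was a DEG (1.07, FDR 0.0114), as it was without cow B5079. With cow as a block the PP1 value was 0.77 (FDR 0.210). At PP2 the value was 0.85 ± 0.418 (FDR 0.242), and 0.30 with cow as a block (FDR 0.848). Cow B5129 held the 14.6 CPM at PP2, where the next highest library held 7.81, and without this cow the value was 0.42 (FDR 0.659).

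*TNFAIP3* encodes A20, an inhibitor of NF-kB signalling, and had a log2 fold change of 0.42 ± 0.192 at PP1 (unadjusted p = 0.0382, FDR 0.176, edgeR; 7 of 8 cows higher), and of 0.26 without cow B5090 (FDR 0.453). *TLR5*, the receptor for bacterial flagellin, held 5.39 to 18.7 CPM in the PreP libraries (median 12.8), 3.52 to 15.2 in those of PP1 (median 9.04) and 0.585 to 12.2 in those of PP2 (median 3.88). The time points overlapped, but each of the 8 paired cows had less *TLR5* at PP2 than at PreP, as did 2.24% of all genes. At PP2 the log2 fold change was -1.10 ± 0.422 (FDR 0.123, exact permutation p = 0.00411), and -1.75 with cow as a block (FDR 0.0575). It was a DEG with only the paired cows in the fit, by voom, and without cow B5079 (FDR 0.0424). *NLRP6*, a NOD-like receptor known from the intestine, which overlaps *NBAS* in RefSeq, had medians of 6, 2 and 4 reads and an unadjusted p above 0.05 in all comparisons. *MYD88*, the adaptor of Toll-like receptors and the only 1 of 16 genes of the TLR and NF-kB list with an ID, had a log2 fold change of 0.40 ± 0.145 at PP1 (FDR 0.0943) and 0.47 ± 0.21 at PP2 (FDR 0.192).

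Of the interleukins, *IL18*, a cytokine matured by inflammasome-activated caspase-1, held 3.05 to 18.2 CPM in the PreP libraries (median 8.18), 4.78 to 56.2 in those of PP1 (median 16.4) and 3.73 to 27.8 in those of PP2 (median 9.67). It was higher at PP1 in 7 of 8 cows and lower at PP2 than at PP1 in 7 of 9 cows. Its log2 fold change was 1.15 ± 0.415 at PP1 (unadjusted p = 0.0111, FDR 0.0943, edgeR) and 0.26 ± 0.405 at PP2 (FDR 0.787). Between PP2 and PP1 it was -0.89 ± 0.413 (unadjusted p = 0.0425, FDR 0.86, edgeR). This value was -0.71 with cow as a block (unadjusted p = 0.126, edgeR) and -0.50 without cow B4886, and the exact permutation p was 0.0921. Without the PP1 library of cow B5169 *IL18* was a DEG at PP1 (1.27, FDR 0.0262), whereas with cow as a block it was 0.90 (FDR 0.148). Its receptor chain *IL18R1* had a log2 fold change of 0.47 ± 0.434 at PP1 (FDR 0.531).

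*IL1B*, the other cytokine matured by caspase-1, showed no shift between time points beyond its spread, with medians of 3.98, 4.10 and 4.62 CPM. Cow B4987 held its highest value at both PreP (15.2 CPM) and PP2 (29.2 CPM), but at PP1 this cow held 2.35 CPM, under the median. *IL4R*, a chain of the receptors for interleukins 4 and 13, held 57.3 to 132 CPM in the PreP libraries (median 92.0), 79.3 to 169 in those of PP1 (median 127) and 93.8 to 234 in those of PP2 (median 172). It was higher than at PreP in 7 of 8 cows at either postpartum time point. The log2 fold change was 0.37 ± 0.171 at PP1 (FDR 0.183) and 0.67 ± 0.212 at PP2 (unadjusted p = 0.0045, FDR 0.0602, edgeR). With cow as a block the PP2 value was 0.70 (FDR 0.150). The cow with the lowest *IL4R* was B5102 at all 3 time points.

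*IL17A*, the signature cytokine of Th17 and gamma delta T cells, had 0 reads at PreP and PP1 and 5 reads at PP2, 2 in the library of cow B4987 and 3 in that of cow B5090. The unadjusted p at PP2 relative to PreP was 0.0427 (FDR 0.214, edgeR), and since a count of 0 allows up to 3 reads per library no fold change is given. *IL36A* had 3, 2 and 6 reads in all. *IL5RA* (the eosinophil growth factor receptor) and *IL22RA1* (an epithelial receptor chain) had an unadjusted p above 0.05 in all comparisons.

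Of the chemokine genes, *CXCR4*, the receptor for CXCL12 that retains leukocytes in tissue, held 4.82 to 13.4 CPM in the PreP libraries (median 8.44), 8.04 to 27.4 in those of PP1 (median 12.3) and 4.26 to 16.7 in those of PP2 (median 7.75). The log2 fold change was 0.69 ± 0.215 at PP1 (unadjusted p = 0.004, FDR 0.0568, edgeR; 6 of 8 cows higher) and 0.11 ± 0.291 at PP2 (FDR 0.884). The PP1 value was 0.76 (FDR 0.0146) without the PP1 library of cow B5169, under the threshold on the fold change. Between PP1 and PP2 it was -0.61 ± 0.284 (unadjusted p = 0.0433, FDR 0.864), with 7 of 9 cows lower. *CCR3*, the eotaxin receptor of eosinophils, had medians of 1.48, 1.18 and 1.03 CPM, and *CCL17* and *CCL28* were near the detection floor.

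Neither B cell gene was a DEG in edgeR's quasi-likelihood test. *CD79A*, the signalling chain of the B cell receptor, had a log2 fold change of 0.97 ± 0.431 at PP1 (unadjusted p = 0.0349, FDR 0.167, edgeR) and 1.37 ± 0.526 at PP2 (unadjusted p = 0.0163, FDR 0.124). DESeq2 called it a DEG at PP2 (1.41, FDR 0.048), whereas the PP2 value was 0.79 with cow as a block (unadjusted p = 0.128, FDR 0.516, edgeR) and 0.33 by voom (FDR 0.649). The library of cow B4886 held 22.3 CPM at PP1 and 36.9 CPM at PP2, 47.7% of the summed level of the 9 PP2 libraries. The next highest libraries held 10.1 and 10.5 CPM. Medians were 2.45 CPM at PreP, 4.20 at PP1 and 3.91 at PP2. Without cow B4886 the log2 fold change was 0.48 at PP1 (FDR 0.497) and 0.51 at PP2 (FDR 0.559). *FCRL5*, an Fc receptor-like protein of B and plasma cells, had log2 fold changes of 0.07 ± 0.331 and -0.13 ± 0.364.

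*BOLA*, the symbol under which MHC class I was counted, had the most reads of all these genes, from 268 to 641 CPM at PreP (median 414), 262 to 707 at PP1 (median 471) and 272 to 998 at PP2 (median 645). Its log2 fold change was 0.09 ± 0.199 at PP1 (FDR 0.818) and 0.36 ± 0.26 at PP2 (FDR 0.47). MHC genes have near-identical copies in cattle, and how reads matching several copies were counted is not given in the sources used here, so this value is uncertain. *TAP2* and *PSMB8*, which supply peptides to MHC class I and were the 2 of 7 genes of that list with an ID, had log2 fold changes of -0.08 ± 0.146 and 0.06 ± 0.155 at PP1, and of 0.26 ± 0.204 and 0.42 ± 0.218 at PP2.

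In the LY6 family, *CD59*, the membrane inhibitor of the complement attack complex, had medians of 129, 128 and 111 CPM and did not pass the test. *CD177*, a surface glycoprotein of neutrophils, had 0 reads in all 9 PreP libraries. It had 11 reads in 3 of the 10 PP1 libraries, 8 of them in cow B4987, and 10 reads in 4 of the 9 PP2 libraries. The unadjusted p was 0.021 at PP1 (FDR 0.129) and 0.0125 at PP2 (FDR 0.107, edgeR), and since these levels lie around the floor of 3 reads no fold change is given. *LY6G6C*, *LY6G6E*, *LY6G6F* and *LY6K* had an unadjusted p above 0.05 throughout.

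None of the genes that only share a prefix was a DEG. *ISG20L2*, a nucleolar exoribonuclease of ribosomal RNA maturation, held 12.8 to 22.0 CPM in the PreP libraries (median 17.1), 16.4 to 31.3 in those of PP1 (median 21.8) and 16.7 to 34.9 in those of PP2 (median 26.3). The log2 fold change was 0.42 ± 0.141 at PP1 (FDR 0.0771) and 0.58 ± 0.177 at PP2 (FDR 0.0526, higher in 7 of 8 cows, exact permutation p = 0.0028). *IRF2BP1*, a transcriptional corepressor, was the 1 gene with an unadjusted p under 0.05 and a lower level at PP1 (-0.39 ± 0.145, FDR 0.104, lower in 7 of 8 cows). The values at PP1 without the library of cow B5169 were 0.44 for *ISG20L2* (FDR 0.0401) and -0.47 for *IRF2BP1* (FDR 0.0216), neither past the threshold on the fold change. *LYVE1*, a hyaluronan receptor of lymphatic vessels and some macrophages, had log2 fold changes of 0.44 ± 0.408 (0.08 with cow as a block) and -0.30 ± 0.405.

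**Figure D3:**
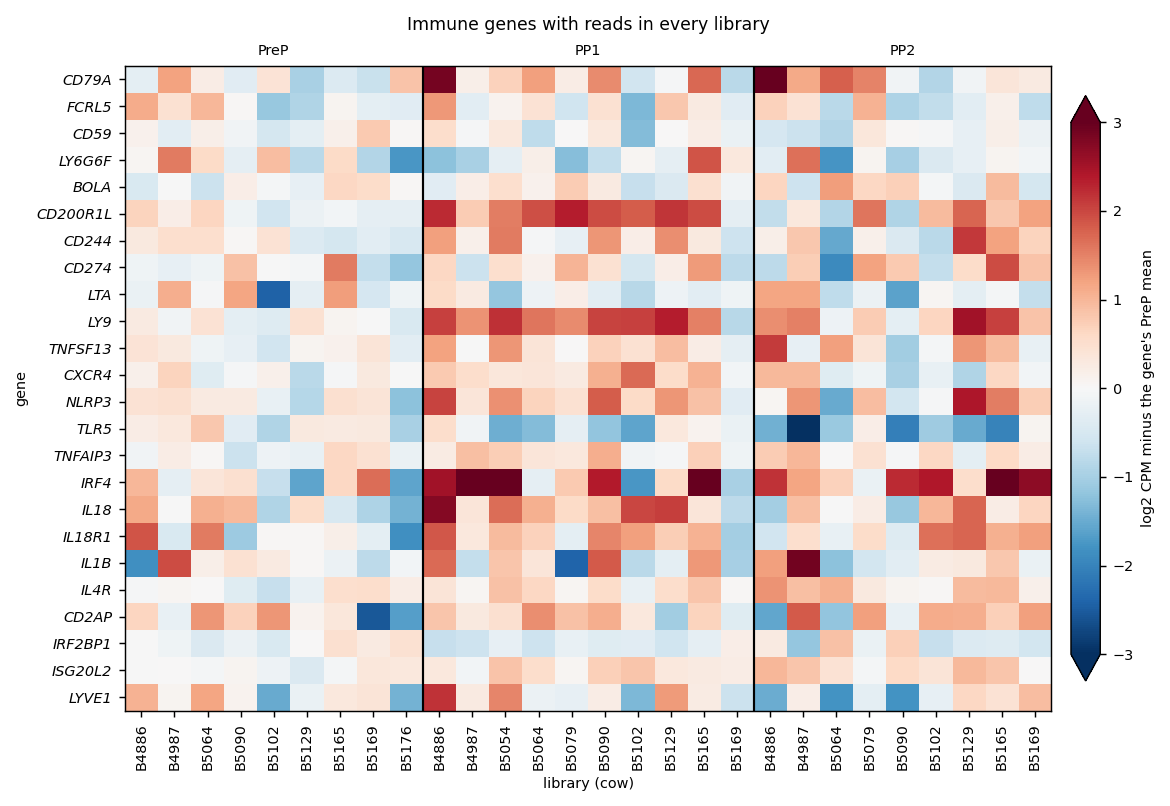
Level of the 24 genes with reads in every library (rows, ordered by role) in each of the 28 libraries (columns, named by cow), as log2 CPM minus the PreP mean of the gene. *CD200R1L* and *LY9* were above their PreP mean in all PP1 libraries but that of cow B5169, where 11 of the 24 genes had their lowest PP1 level.

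Markers of cell types that whole AT can hold are given beside these DEG. Of 13 macrophage markers listed, 3 had an ID in the table of symbols (*CD68*, *MSR1* and *CD300A*), and none of the 3 was at 0 in any library. Their summed level ran from 26.7 to 127 CPM at PreP, from 47.6 to 452 at PP1 and from 49.4 to 317 at PP2. At PP1 all 3 were DEG, with log2 fold changes of 2.12 ± 0.362 for *CD68* (FDR 0.00314), 1.90 ± 0.284 for *MSR1* (FDR 0.00249) and 1.14 ± 0.287 for *CD300A* (FDR 0.0226). With cow as a block none of the 3 was a DEG at PP1, with 2.12 for *CD68* (FDR 0.0656), 1.64 for *MSR1* (FDR 0.0626) and 0.79 for *CD300A* (FDR 0.155). *CD300A* was also no DEG at PP1 without any 1 of the cows B4886, B5054, B5064, B5090 or B5129, with an FDR up to 0.0749.

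At PP2 the log2 fold changes of these markers were 1.48 (FDR 0.0206), 0.88 (FDR 0.165) and 0.93 (FDR 0.13), in the same order, and that of *MSR1* was 0.51 with cow as a block (FDR 0.685). *CD68* was a DEG at PP2 with cow as a block (1.497, FDR 0.0414), and not without cow B4886, B4987 or B5129, with an FDR up to 0.0731. As with *CD200R1L*, *MSR1* was lower at PP2 than at PP1 in 8 of 9 cows (-1.03 ± 0.372, FDR 0.567). The other markers of this list were more mixed. *CD68* was higher at PP2 than at PP1 in cows B4886, B4987 and B5169 and lower in the other cows with both samples. *CD300A* was higher at PP2 in cows B4987, B5102, B5129, B5165 and B5169 and lower in cows B4886, B5064, B5079 and B5090. The PP1 library of cow B5169 had the lowest summed level of these markers at PP1. *PDPN*, listed for lymphatic endothelium, was also a DEG at PP1 (1.59, FDR 0.0198) and PP2 (1.47, FDR 0.0248). With cow as a block it was a DEG at neither (1.26, FDR 0.176, and 1.13, FDR 0.25). The call of *PDPN* was also lost without cow B5090, B5102, B5129 or B5165 at PP1 and without cow B4987, B5102, B5129, B5165 or B5176 at PP2, with an FDR up to 0.0865. *KIT*, listed for mast cells, was lower in 8 of 8 cows at both time points and was not a DEG (-0.49, FDR 0.136, and -0.74, FDR 0.255). Among all genes 2.24% were lower in every paired cow at PP2, and the share at PP1 is not given here. At PP2 *KIT* was -1.25 with cow as a block (FDR 0.0956), and without cow B5079 it was a DEG (-1.20, FDR 0.0158). *PRF1*, listed for cytotoxic cells, was not a DEG either (0.37, FDR 0.606, and 1.08, FDR 0.245). The part of any of these cell types in the differences of *CD200R1L*, *LY9* and *IRF4* was not tested. *FLT4* and *KDR* (endothelium) and *KRT18* (epithelium) were no DEG in any comparison, and the milk protein gene *CSN2* had 1 read. No gene had an ID in the other 8 of 14 marker lists (T cells, B and plasma cells, neutrophils, dendritic cells, adipocytes, fibroblasts, skeletal muscle and red blood cells) or in 7 of the 9 pathway lists.

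**Figure D4:**
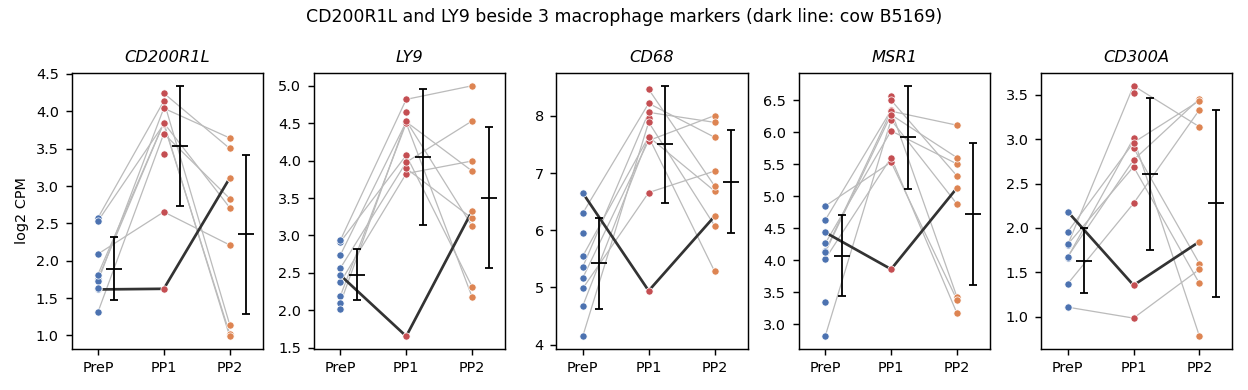
Level (log2 CPM) of *CD200R1L* and *LY9* beside the macrophage markers *CD68*, *MSR1* and *CD300A*, by time point, with lines joining samples of the same cow and bars for the mean ± SD. The dark line is cow B5169, whose PP1 library had the lowest summed level of the 3 markers at PP1 (47.6 CPM).

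To determine whether the genes differed between the 2 postpartum time points, PP2 was compared with PP1. None of the 43 genes was a DEG in edgeR's quasi-likelihood test (smallest FDR 0.609), as 0.0% of all 18518 genes. None was a DEG by the likelihood ratio test, DESeq2 or voom either, where 0.864%, 0.0% and 0.0% of all genes were. An unadjusted p under 0.05 was found for 5 genes (11.6%, against 5.6% of all genes). These were *CD200R1L*, *CXCR4* and *IL18*, lower at PP2 with the values given above, *BOLA-DYA*, also lower and described below, and *IL17A*, with 5 reads in all. Among all genes 1.98% were lower with such a p. *NLRP3* (-0.13 ± 0.414) and *TNFAIP3* (-0.06 ± 0.211) were close to 0 with wide errors.

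Some genes were highest in the same cow throughout. In the 8 cows sampled at every time point, the same cow had the highest level at all 3 time points for 4 of the 24 genes found in every library, compared with 1.94% of all genes found in every library. These were *LY9* (cow B5129), *CD274* (cow B5165), and *TNFSF13* and *FCRL5* (cow B4886). For *CD274* this cow held 4.91 CPM at PreP, 4.07 at PP1 and 6.54 at PP2, and no other library exceeded 3.07, 3.39 and 3.87. The same cow had the lowest level at all 3 time points for 1 gene, *IL4R* (1.23% of all genes).

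The chemokine *CXCL10*, which is induced by interferon gamma, was high in 1 cow. Cow B5165 held 29.7 CPM at PreP, 6.33 at PP1 and 14.4 at PP2, which was 83.3%, 34.0% and 72.2% of the summed level of its time point. The next highest libraries held 1.28, 2.39 and 1.85 CPM. *BOLA-DYA*, an MHC class II gene of ruminants, had 7 of its 9 PreP reads and 20 of its 21 PP1 reads in the same cow, and 2 reads in all at PP2. *CXCL10* had no unadjusted p under 0.05. *CXCL10*, *CD274*, *FCRL5*, *IL1B* and *BOLA-DYA* are given here because of their values in single cows.

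**Figure D5:**
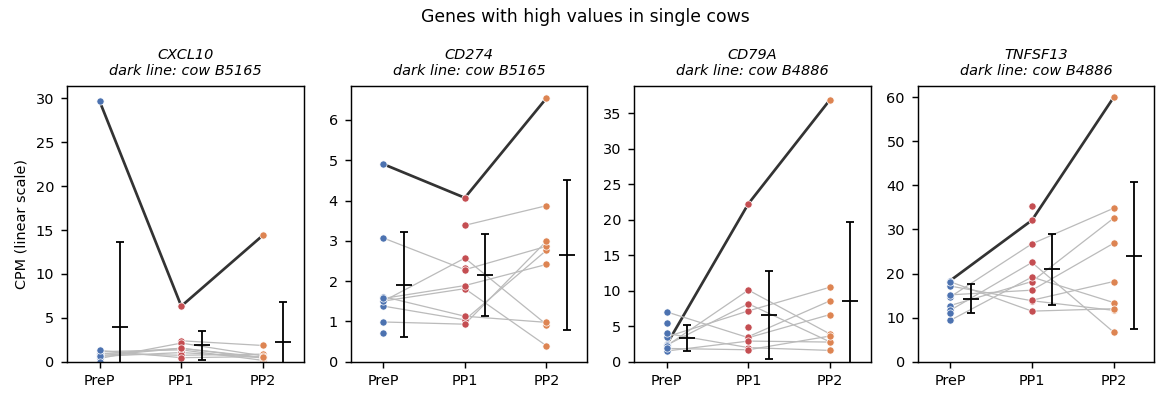
CPM (linear scale) of *CXCL10*, *CD274*, *CD79A* and *TNFSF13* in each library by time point, with grey lines joining samples of the same cow and bars for the mean ± SD. The dark line marks cow B5165 for *CXCL10* and *CD274* and cow B4886 for *CD79A* and *TNFSF13*, for example 29.7 CPM of *CXCL10* at PreP where the next highest library held 1.28.

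The remaining 26 genes were left over for being no DEG and having no unadjusted p under 0.05 relative to PreP without the cow term. Their values are thus a description. At PP1, 14 of the 25 tested were higher and 11 lower. At PP2, 12 of 26 were higher and 14 lower. No fold changes are given for the extremes, genes of few reads such as *CCL17*, *BOLA-DYA* and *IFNLR1*, where single libraries held most reads at a time point (for *CCL17*, 30 of the 44 PreP reads were in the library of cow B5169). For no gene of the 43 were the CPM ranges of 2 time points apart, which was the case for 0.0379% of all genes for PP1 and PreP, 0.151% for PP2 and PreP and 0.0054% for PP2 and PP1.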

How the data were processed

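Subcutaneous AT of Holstein cows was profiled by RNA-seq at PreP, PP1 and PP2. The authors filtered the reads, mapped them to bosTau7 with HISAT2 2.1.0, counted them per Ensembl gene with HTSeq 0.6.1 and deposited raw counts, neither normalized nor filtered. Strandedness and the treatment of reads with several matches are not given in the sources used here. All columns were used. Cow and time point were read from the labels.

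A gene entered a comparison when any of its libraries held 3 reads or more. The quasi-likelihood test of edgeR 4.0.16 (R 4.3.3) was run on each pair of time points with TMM scaling, and Benjamini-Hochberg adjustment covered all genes tested. The study's methods name a fold change over 1, read here as log2. Levels used a prior count of 1. Exact permutation tests were two-sided. Samples of 1 cow are paired because they come from the same animal. Mean correlations of their residuals were 0.0979, 0.0166 and 0.102 for PP1 with PreP, PP2 with PreP and PP2 with PP1. P-values without the cow term treat libraries of the same cow as independent. A value of 3 reads was taken as the floor, for counting error only.

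Values are given for each DEG, for other genes with an unadjusted p under 0.05 relative to PreP, and for the gene of highest CPM in a role with none. Any gene outside this rule was picked with its values in view. The genes and lists were chosen with earlier results of these data known. Of 74 marker genes and 84 pathway genes listed, 10 and 3 had an ID, because the copy of the symbol table used is not complete. Neighbours came from RefSeq by symbol (another assembly, so no coordinates are given), where 15 of the 43 genes overlap another gene. Alternatives were other filters (filterByExpr or none), scalings (RLE, total counts), tests (likelihood ratio, DESeq2 1.42.0, limma 3.58.1 voom with quality weights), cow as a block, paired cows only, a joint fit of the time points, no threshold on the fold change, a prior count of 0.25, and each cow or single libraries left out. Fits were checked on simulated data. Columns of the authors' comparisons were not used. Sequences are not shown, and the values of 1 of the 43 genes are not reported here.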

Additional observations from a re-analysis of the deposited data

Results flagged for a closer look

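Over the genes given with values and *CXCL10* and *CD274*, 54 sets of libraries (1 gene at 1 time point) were searched for a library that stood apart by Dixon's test at the 95% level, and 1 was found where chance gives about 2.7. The PP1 library of cow B5169 held *LY9* at 1.65 on the log2 CPM scale (53 reads), and the next lowest PP1 library held 3.83. The gap was 0.687 of the whole PP1 range. Values of *LY9* with and without this library are given above.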

How the results depend on the processing

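At PP1, 2 genes were DEG. The number was 3 with the likelihood ratio test (*IRF4* added), 3 with voom (*NLRP3* added), 4 with DESeq2 (*IL18* and *IRF4* added), 1 with cow as a replicate block (*CD200R1L*), and 5 without the PP1 library of cow B5169, an alternative chosen after seeing the data. These were 7.32%, 7.32%, 9.76%, 2.44% and 12.2% of the genes described. Of all genes, 5.79%, 8.62%, 5.72%, 0.314% and 8.84% were DEG in these fits, in the same order. With each cow left out the number of genes described ran from 2 to 5, the latter without cow B5169 (where 9.5% of all genes were DEG). At PP2, where 2 genes were DEG, the number was 1 with total counts (*LY9*), 1 with all 3 time points in 1 fit (*LY9*) and 1 with cow as a replicate block (*IRF4*). This is 2.33% of the genes described each time, beside 4.61%, 6.25% and 2.2% of all genes. The number was 3 with the likelihood ratio test (*CD177* added), with DESeq2 (*CD79A* added), and with voom or only the paired cows (*TLR5* added). This is 6.98% each time, beside 7.85%, 7.08%, 5.86% and 5.26% of all genes in the same order. With each cow left out the number of genes described ran from 0 to 3, with 0 without B4886, B4987, B5102, B5129, B5165 or B5176 and 1 without B5090. In the fits with 0, the share of all genes that were DEG ran from 2.49% to 3.54%. It was 4.43% without B5090 and 5.47% with all cows. Between PP2 and PP1 the number was 0 under every alternative run. Of all genes, 0.864% were DEG there with the likelihood ratio test, 0.931% with all 3 time points in 1 fit and 0.0054% with cow as a block. Under the other alternatives no gene was. The cause of these differences was not tested. Of 24 log2 fold changes followed through 536 alternative values, 0 changed sign, 17 values lost a call and 16 gained one. With cow as a block, the calls that changed among the 43 genes were those of *LY9* at PP1 and PP2. Genes with a median under 3 reads are limited by depth.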
